A study of Tachycineta bicolor and Sialia sialis and Hirundo rustica with 121 samples.

Results

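Chaperones and co-chaperones help proteins fold, assemble, cross membranes and leave aggregates. The 67 genes described here were chosen by symbol from the 10672 genes of the deposited count table: the J-domain proteins of the DNAJA, DNAJB and DNAJC classes, the heat shock protein families HSPA, HSPB, HSPD, HSPE and HSP90, the cytosolic chaperonin (CCT2 to CCT8 and TCP1), BAG1 to BAG6 and the PDIA disulphide isomerases. HSPG2, which shares the prefix and encodes a basement membrane protein, was left out, and not every gene of these families is reported. The set held 31 J-domain genes (3 DNAJA, 8 DNAJB, 20 DNAJC), 9 HSPA genes, 3 Hsp90 genes, 3 small heat shock genes, HSPD1 with HSPE1, 7 chaperonin genes, 6 BAG genes and 4 PDIA genes. It also held HSPBP1, a nucleotide exchange factor, and HSPB11, which carries the name of a small heat shock protein but belongs to the intraflagellar transport machinery of cilia. Together they took between 1.44% and 3.49% of a bird's counts.

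Hsp70 proteins bind exposed hydrophobic stretches of a client in a cycle driven by ATP. J-domain proteins bring them clients and start ATP hydrolysis, while BAG proteins, HSPBP1 and the large Hsp70 relatives HSPA4 and HSPA4L release the nucleotide. Hsp90 acts later, on kinases and on steroid hormone receptors among others, the chaperonins enclose a client in a chamber, and disulphide isomerases form and exchange disulphide bonds in the endoplasmic reticulum (ER). Neurons depend on constitutive members for work at the synapse, such as the cysteine string protein DNAJC5 on synaptic vesicles and the auxilin DNAJC6 in uncoating clathrin.

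RNA was sequenced from the ventromedial telencephalon, a forebrain region, of 61 female and 60 male adult birds of 10 species, taken in the Midwestern United States before laying, while territories were set up and nests were built. Each of 5 families gave 1 obligate cavity nester and 1 partner with a less strict habit: Tree Swallow and Barn Swallow (Hirundinidae), Prothonotary Warbler and Yellow Warbler (Parulidae), Eurasian Tree Sparrow and House Sparrow (Passeridae), House Wren and Carolina Wren (Troglodytidae), Eastern Bluebird and American Robin (Turdidae). Barn Swallow, Yellow Warbler and American Robin are open cup nesters, and House Sparrow and Carolina Wren are facultative cavity nesters. Each species had 6 females and 6 males, except that Tree Swallows had 7 females. A family holds a single pair of species, so nesting habit and every other difference within a pair cannot be told apart.

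Total counts ran from 4526413 to 7549296 per bird, with a median of 5861243. Each library lay nearest to its own species, and 6, the same that an earlier account of these data had set aside, stood apart. House Sparrow female 3, Barn Swallow females 3 and 4 and Eastern Bluebird male 12 had a median correlation of 0.860 to 0.896 with the birds of their species and sex (0.906 or more in the others), and the libraries labelled Carolina Wren female 1 and Carolina Wren male 3 went against their labels in CHD1W, a gene of the female-limited W chromosome. Eastern Bluebird male 13 had 10.1 CPM of CHD1W, between the other bluebird males (0 to 0.313) and the bluebird females (21 to 31.3), and was kept. EMX2, a marker of the telencephalon, was present in every species (species means of 8.47 to 14.1 CPM), and so was HCRT, a marker of the hypothalamus (6.55 to 22 CPM), the 1 gene of 7 on that list that was measured. All levels below are in CPM, after scaling for library size and composition, and in whole tissue fewer cells of a type and less RNA per cell cannot be told apart. Gene lengths were not used here, so levels are compared only within a gene, between birds or species. A difference between species also contains any difference in how well their reads matched the mapping reference. The name of the deposited table refers to zebra finch proteins, zebra finches being none of the 10 species, and the labels say no more.

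The heat map of species means shows how widely the members varied. All 67 members differed among the 10 species (edgeR's quasi-likelihood F test, Benjamini-Hochberg adjusted p under 0.05), as did 99.6% of all 10648 genes tested. For the median member, family accounted for 41.6% of the variance of log2 CPM, species within family for 30% and sex for 0.0586%. The remainder, birds within a species together with any sex difference particular to a species, held 22.7%. The same medians over all genes were 40.5%, 21.3%, 0.126% and 28.8%. The distance between the highest and the lowest species mean had a median of 1.56 log2 units among the members and 1.63 among all genes.

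**Figure D1:**
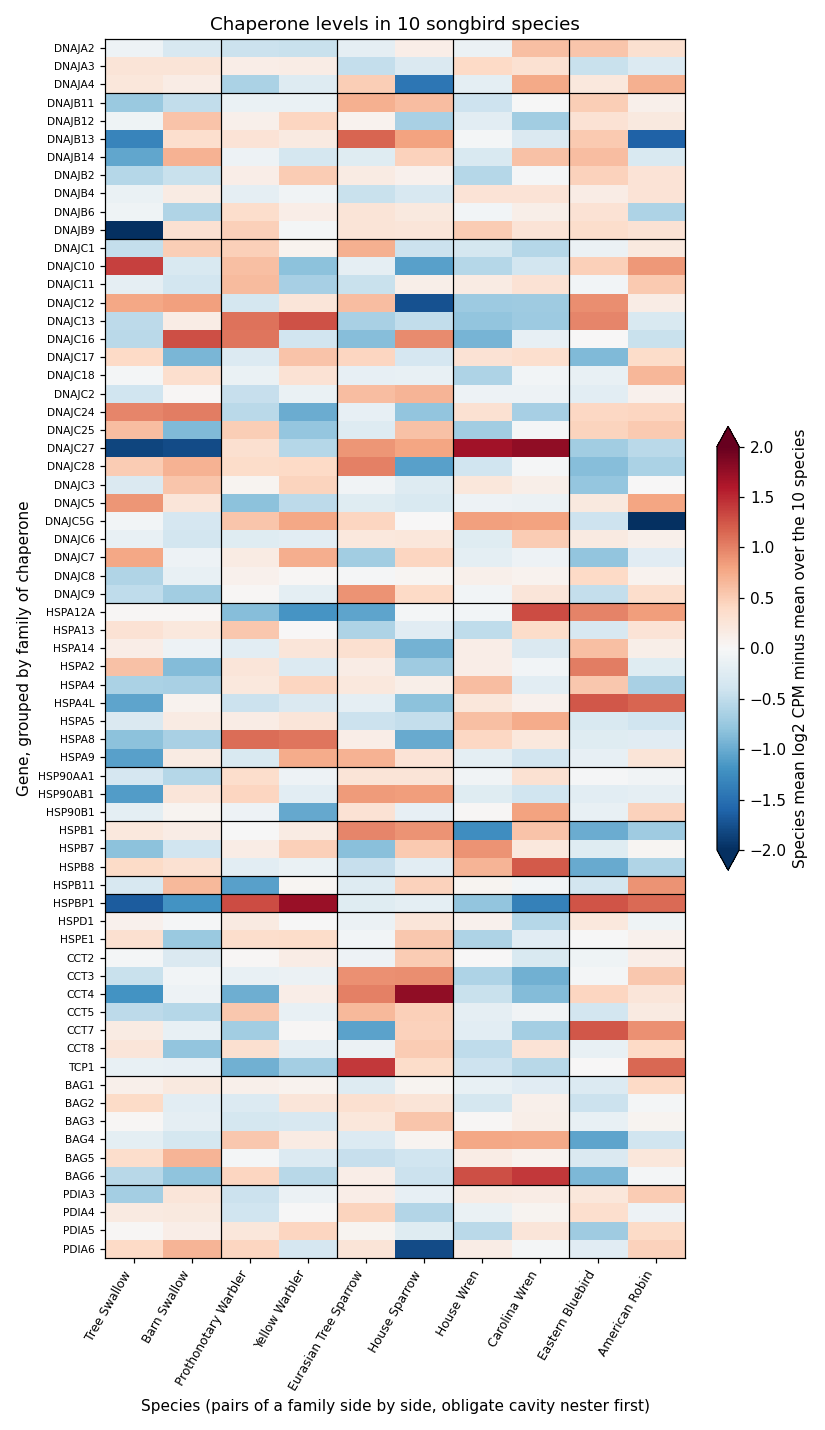
Species means of log2 CPM of the 67 members, each minus the mean over the 10 species, with the species of a family side by side and the obligate cavity nester first; colours end at 2 log2 units in either direction. Among members with a mean of at least 5 CPM, DNAJC27, DNAJB9 and CCT4 span 3.60, 3.15 and 2.96 log2 units and BAG1 0.67, and of those below it DNAJC5G and HSPBP1 span 3.43 and 3.40.

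DNAJC27, a Rab-like GTPase fused to a J domain, had the widest range among members with a mean of at least 5 CPM, 3.60 log2 units. Its mean was 2.23 CPM in Tree Swallows and 2.63 in Barn Swallows, and 26.8 in House Wrens and 28.7 in Carolina Wrens. The wrens were all at or above 18.8 CPM and the swallows all at or below 5.52 CPM, so the families did not overlap. Next came DNAJB9 (3.15), an ER co-chaperone of HSPA5, the chaperonin subunit CCT4 (2.96), DNAJB13 (2.78), a protein of the axoneme of cilia and sperm flagella, DNAJC12 (2.68), which in humans binds the aromatic amino acid hydroxylases, and HSPA12A (2.49), an atypical Hsp70.

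The narrowest ranges belonged to BAG1 (0.67 log2 units), DNAJB4 (0.72), BAG2 (0.81), HSPD1 (0.82), CCT2 (0.82) and DNAJC6 (0.87). BAG1, a nucleotide exchange factor of Hsp70, had species means from 12.1 CPM (Eurasian Tree Sparrows) up to 19.95 CPM (American Robins). HSPD1, the mitochondrial chaperonin Hsp60, had species means between 505 CPM in Carolina Wrens and 893 CPM in House Sparrows.

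Every bird of a species lay outside the range of the birds of all other species in 6 members (8.96%, against 7.84% of all genes). Without the 6 libraries that stood apart there were 9 such members, while the 7.84% of all genes was counted with those libraries in. DNAJB9 gave the largest gap of these, 6.24-fold, and was the only member with a gap of 4-fold or more (1.49% of members, 1.61% of all genes). Its level in Tree Swallows was 2.12 CPM in the lowest bird, 2.93 at the median and 8.33 in the highest, whereas no bird of the other species was under 16.6 CPM. Species means of DNAJB9 outside Tree Swallow stayed between 21.9 CPM in Yellow Warblers and 32.0 CPM in House Wrens. Low in House Sparrows were PDIA6 (2.63-fold under the nearest species) and DNAJA4 (1.75-fold), and high there was CCT4 (1.70-fold). HSPA9, the mitochondrial Hsp70, was low in Tree Swallows (1.61-fold), and CCT7 was high in Eastern Bluebirds (1.27-fold).

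The first comparison set the obligate nester of each family against its partner, with sex as a covariate and all genes in the fit. In Hirundinidae 38 of 65 members tested differed (58.5%), 15 higher and 23 lower in Tree Swallows, where 54.4% of all genes differed, 25.8% higher and 28.5% lower. Parulidae had 41 of 67 (61.2%), 21 higher and 20 lower in Prothonotary Warblers (all genes 55.4%, 28.1% higher and 27.3% lower). With scaling by library size only, the median of all genes in that family moved to -0.17 log2 and 36.6% of the called members were higher, against 51.2% with the TMM scaling used here. Passeridae had 36 of 67 (53.7%), 18 higher and 18 lower in Eurasian Tree Sparrows (all genes 49%, 24.2% higher and 24.8% lower), and library size alone moved the median of all genes to -0.20, with 17 members higher and 24 lower (all genes 1816 and 4055). Troglodytidae had 42 of 66 (63.6%), 19 higher and 23 lower in House Wrens (all genes 56.9%, 30.7% higher and 26.2% lower). With DESeq2 size factors the balance of all genes turned there, from 3225 higher and 2758 lower to 2889 and 3006, and 14 members were higher and 24 lower. In Hirundinidae library size alone turned the balance of all genes from 2719 higher and 3002 lower to 3007 and 2729, with 16 members higher and 22 lower, and so did leaving out the libraries that stood apart (all genes 3121 and 2852, members 15 and 20). DESeq2 size factors turned the balance of all genes in Passeridae as well, to 2574 higher and 2525 lower from 2543 and 2600, and in Turdidae to 2918 and 2998 from 3013 and 2930, while the members there stood at 18 and 18, and 16 and 28. Turdidae had 45 of 66 (68.2%), 17 higher and 28 lower in Eastern Bluebirds (all genes 56.3%, 28.5% higher and 27.7% lower). In Turdidae the median member was lower in bluebirds by a log2 difference of -0.17, beside 0.02 for all genes.

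The birds of the pair did not overlap at all in 19 members in Hirundinidae (14.5% of all genes did the same), 10 in Parulidae (16.5%), 17 in Passeridae (13.3%), 13 in Troglodytidae (17.4%) and 14 in Turdidae (14.5%). The filter on low counts removed 3 members in some families. HSPB7, a small heat shock protein of muscle, had species means of 0.581 to 2.73 CPM and was not tested in Hirundinidae. HSPBP1 was not tested in Hirundinidae and Troglodytidae, and DNAJC5G, a relative of DNAJC5, was not tested in Turdidae. DNAJC5G was at 0 CPM at the median of American Robins and reached 0.155 CPM in the highest robin, while Eastern Bluebirds ran from 0.313 to 3.95 CPM.

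**Figure D2:**
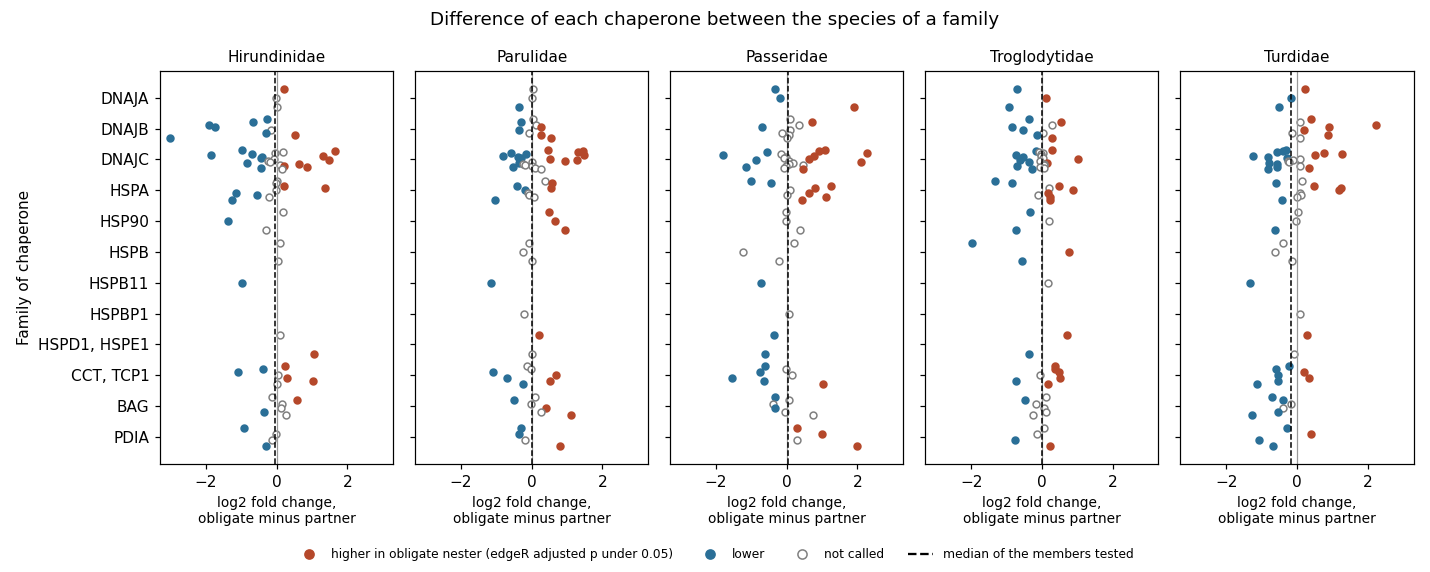
Log2 fold change of each member tested (obligate nester minus partner) by family of birds (panels) and family of chaperone (rows); filled points passed an edgeR adjusted p under 0.05, and the dashed line is the median of the members. Points lie on both sides of 0 in every panel, and the DNAJB point furthest to the left in Hirundinidae is DNAJB9 at -3.02.

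Among the J-domain proteins, most DNAJB genes were lower in Tree Swallows and higher in Eastern Bluebirds than in their partners. Of 8 DNAJB genes, 6 were lower and 1 higher in Tree Swallows (87.5% called, all genes 54.4%). In Eastern Bluebirds 5 were higher and 0 lower (62.5% called, all genes 56.3%). With library size as the only scaling, and likewise without the libraries that stood apart, 5 were lower and 1 higher in Tree Swallows. DNAJB9 was lower in Tree Swallows than in Barn Swallows (16.6 to 43.3 CPM) by a log2 difference of -3.02 ± 0.20 (SE; adjusted p = 9.84e-14). It was higher in Prothonotary Warblers (0.55) and House Wrens (0.28) than in their partners, and was not called in Passeridae (0.01) or Turdidae (0.08).

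DNAJB14, an ER membrane protein whose J domain faces the cytosol, ran from 51.6 to 86.1 CPM (median 64.9) in Tree Swallows and from 179 to 262 CPM (median 219) in Barn Swallows. The swallows did not overlap, and the log2 difference was -1.75 ± 0.07 (adjusted p = 1.14e-17). In House Wrens (-0.85) and Eurasian Tree Sparrows (-0.70) it was lower too, but higher in Eastern Bluebirds (0.91) and Prothonotary Warblers (0.26). DNAJB6, which in mammals keeps aggregation-prone proteins soluble, had a median of 457 CPM in Eastern Bluebirds (360 to 500) and 245 CPM in American Robins (165 to 323), without overlap (log2 0.89 ± 0.09, adjusted p = 1.71e-09).

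DNAJB13 was lower in Tree Swallows (median 3.07 CPM, 0.886 to 4.45) than in Barn Swallows (8.28 CPM, 3.25 to 33.3), with a log2 difference of -1.91. In Eastern Bluebirds it was higher (median 12.4 CPM, 3.40 to 16.8) than in American Robins (2.31 CPM, 0 to 5.00), with a log2 difference of 2.25. The birds overlapped in both pairs. Of the choroid plexus and ependyma markers, 5 of 7 were measured, and 1 was lower in Tree Swallows, while 1 was higher and 1 lower in Eastern Bluebirds. Their summed level ran from 70.9 to 3890 CPM in Tree Swallows, 84.7 to 11000 in Barn Swallows, 54.0 to 9500 in Eastern Bluebirds and 9.58 to 7560 in American Robins. TTR, with means of 544, 2470, 3640 and 4020 CPM in that order, gave the most counts to these sums. FOXJ1, CFAP43, CFAP54 and AK7 had means of 6.84, 27.5, 22.1 and 29.4 CPM in Tree Swallows and 6, 22, 18.5 and 53 in Barn Swallows. Their means were 7.18, 3.2, 30.5 and 13.3 CPM in Eastern Bluebirds and 5.09, 9.35, 1.77 and 7.77 in American Robins. The part of these markers in the DNAJB13 difference was not tested.

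DNAJC members split in each family. They were called 6 higher and 7 lower in Hirundinidae, 7 and 7 in Parulidae, 7 and 4 in Passeridae, 3 and 7 in Troglodytidae, and 4 and 10 in Turdidae, and with library size as the only scaling 7 and 7 in Passeridae. The shares called were 65%, 70%, 55%, 50% and 73.7% in that order of families, beside 54.4%, 55.4%, 49%, 56.9% and 56.3% of all genes. DNAJC10, an ER reductase that opens the disulphide bonds of misfolded proteins, was at 151 CPM at the median of Tree Swallows (128 to 180) and at 49.7 in Barn Swallows (36.4 to 56.0). The log2 difference was 1.66 ± 0.07 (adjusted p = 4e-17). The pairs of warblers (log2 1.45) and of sparrows (0.92) did not overlap either, again with the higher level in the obligate nester, whereas House Wrens (-0.17) and, among thrushes, Eastern Bluebirds (-0.38) were lower.

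DNAJC16, a J-domain protein with a thioredoxin-like domain, changed sides as well. It was lower in Tree Swallows (median 26.4 against 101 CPM in Barn Swallows, log2 -1.86) and Eurasian Tree Sparrows (21.2 against 77.2 CPM in House Sparrows, -1.80), and higher in Prothonotary Warblers (84.2 against 32.5 CPM in Yellow Warblers, 1.48). The birds of each of these pairs did not overlap. DNAJC25 was higher in Tree Swallows (median 22.1 against 7.56 CPM in Barn Swallows, log2 1.48) and Prothonotary Warblers (18.7 against 8.55 CPM in Yellow Warblers, 1.27), and lower in Eurasian Tree Sparrows (11.9 against 21.0 CPM in House Sparrows, -0.86).

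Further DNAJC genes also differed in more than 1 family. DNAJC17, a nuclear J-domain protein with an RNA recognition motif, was higher in Tree Swallows (median 23.3 against 9.03 CPM in Barn Swallows, log2 1.30) and Eurasian Tree Sparrows (0.77), while Eastern Bluebirds (-1.23) and Prothonotary Warblers (-0.80) had less than their partners. DNAJC11, a mitochondrial protein linked to the cristae, was higher in Prothonotary Warblers (92.0 against 37.5 CPM in Yellow Warblers, log2 1.32), and lower in Eurasian Tree Sparrows (-0.57) and Eastern Bluebirds (-0.57). DNAJC13, an endosomal protein known as RME-8, was higher in Eastern Bluebirds (169 against 68.1 CPM in American Robins, log2 1.29), and lower in Tree Swallows (-0.69) and Prothonotary Warblers (-0.16, adjusted p = 0.0467, and 0.0535 with DESeq2 size factors). DNAJC3, the ER protein that in mammals inhibits the kinase EIF2AK3, was lower in Eastern Bluebirds (81.8 against 124 CPM in American Robins, log2 -0.78), Tree Swallows (-0.85) and Prothonotary Warblers (-0.36), and higher in House Wrens (0.15).

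Several other J-domain genes differed between the sparrows. DNAJC12 ran from 39.2 to 59.96 CPM (median 49.6) in Eurasian Tree Sparrows and from 6.63 to 39.0 CPM (median 8.09) in House Sparrows. The highest House Sparrow was female 3, a library that stood apart, and the log2 difference was 2.26 ± 0.22 with it and 2.59 without the libraries that stood apart (adjusted p = 1.84e-09 and 3.61e-18). DNAJC28 had a median of 83.2 CPM in Eurasian Tree Sparrows against 17.2 in House Sparrows (log2 2.11), and DNAJA4, a cytosolic partner of Hsp70, 352 and 95.1 CPM (log2 1.91). DNAJC7, which binds both Hsp70 and Hsp90, was lower in Eurasian Tree Sparrows (92.3 against 214 CPM, log2 -1.15). DNAJA4 was lower in House Wrens (213 CPM) than in Carolina Wrens (442 CPM), with a log2 difference of -0.93.

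Within the Hsp70 family, 2 of 9 genes were higher and 3 lower in Tree Swallows, 2 and 3 in Prothonotary Warblers, 5 and 2 in Eurasian Tree Sparrows, 5 and 2 in House Wrens, then 3 and 2 among Eastern Bluebirds, and with library size as the only scaling 1 and 4 in Prothonotary Warblers. In that order of species 55.6%, 55.6%, 77.8%, 77.8% and 55.6% were called, beside 54.4%, 55.4%, 49%, 56.9% and 56.3% of all genes. HSPA2, an Hsp70 that in mammals is made in testis and also in brain, was called higher in the obligate nester in 4 families. Tree Swallows ran from 389 to 1024 CPM (median 551) and Barn Swallows from 111 to 366 (median 224), without overlap, a log2 difference of 1.38 ± 0.19 (adjusted p = 2.49e-07). Eastern Bluebirds ran from 526 to 1047 CPM (median 749) and American Robins from 235 to 497 (median 283), again without overlap (1.24 ± 0.12, adjusted p = 1.58e-09). Eurasian Tree Sparrows (221 to 734, median 419) overlapped with House Sparrows (94.7 to 433, median 236), as did Prothonotary Warblers (271 to 805, median 429) with Yellow Warblers (211 to 582, median 286).

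The log2 differences of HSPA2 were 0.81 ± 0.21 in Passeridae and 0.54 ± 0.18 in Parulidae (adjusted p = 0.00253 and 0.0119). Fits to females alone lost both calls (adjusted p = 0.121 and 0.187), and scaling by library size lost the call in Parulidae (0.0661). In Troglodytidae House Wrens (184 to 707 CPM, median 411) and Carolina Wrens (148 to 688, median 346) overlapped widely, with a log2 difference of 0.20 ± 0.24 (adjusted p = 0.503). HSPA8, the constitutive Hsp70 of neurons, is a close paralogue with which HSPA2 could share reads. It differed in the same direction in Passeridae (log2 1.12) and Troglodytidae (0.24), and passed no test in Hirundinidae (-0.23), Parulidae (0.05) or Turdidae (-0.01). What part shared reads had in the HSPA2 differences was not tested.

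HSPA4 was higher in House Wrens (median 373 CPM, 311 to 444) than in Carolina Wrens (202 CPM, 186 to 243), with a log2 difference of 0.87 ± 0.06. In Eastern Bluebirds (352 CPM, 315 to 407) it was higher than in American Robins (153 CPM, 113 to 213), with 1.18 ± 0.08. Neither pair overlapped. HSPA9 was called in all 5 families, higher in 2 and lower in 3. It was lower in Tree Swallows (median 181 against 443 CPM in Barn Swallows, log2 -1.27) and Prothonotary Warblers (319 against 651 CPM in Yellow Warblers, -1.03). Mean log2 CPM was also lower in Eastern Bluebirds (8.463 against 8.888 in American Robins). It was higher in Eurasian Tree Sparrows (9.323 against 8.898 in House Sparrows) and House Wrens (8.425 against 8.236 in Carolina Wrens). Birds of a species differed little in HSPA9, with an SD of 0.13 log2 units where the median member had 0.28. HSPA12A was lower in House Wrens (85.4 against 225 CPM in Carolina Wrens, log2 -1.33), as was HSPA13, a microsomal Hsp70 relative (11.1 against 21.9 CPM, -0.84). HSPA14, a ribosome-associated Hsp70, was higher in Eurasian Tree Sparrows (67.2 against 25.5 CPM in House Sparrows, 1.26) and was called in all 5 families, lower only in Prothonotary Warblers (-0.43).

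All 3 Hsp90 genes were higher in Prothonotary Warblers than in Yellow Warblers, and in Eurasian Tree Sparrows 0 of 3 were called (1 higher without the libraries that stood apart). Of all genes 28.1% were higher in Prothonotary Warblers, and 49% were called in the sparrows. HSP90B1, the Hsp90 of the ER, had a median of 1114 CPM in Prothonotary Warblers (873 to 1509) and 588 CPM in Yellow Warblers (475 to 752), without overlap, a log2 difference of 0.95 ± 0.10 (adjusted p = 3.23e-09). House Wrens (-0.73) and also Eastern Bluebirds (-0.63) had less of it than their partners. HSP90AB1, the constitutive cytosolic form, was lower in Tree Swallows (median 127 against 345 CPM in Barn Swallows, log2 -1.37 ± 0.09), while the stress-responsive HSP90AA1 was not called there (0.17). Reads of the cytosolic paralogues HSP90AA1 and HSP90AB1 could be split by the counting, and their levels are uncertain to that extent.

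The small heat shock proteins were at low levels and varied between birds. HSPB1 was lower in House Wrens (median 2.25 CPM, 0.329 to 6.22) than in Carolina Wrens (10.1 CPM, 2.20 to 19.96), with a log2 difference of -1.99 and an adjusted p of 7.4e-05, and HSPB8, the partner of BAG3 in clearing aggregates, was also lower (-0.57). HSPB1 was not called in the other 4 families. In House Wrens HSPB7 was higher (0.78), a call lost without the libraries that stood apart, where 0 of the 3 small heat shock genes were called higher.

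HSPB11, the intraflagellar transport protein, was lower in the obligate nester in 4 families. Eastern Bluebirds ran from 7.33 to 16.0 CPM (median 11.6) and American Robins from 16.8 to 41.9 (median 27.4), without overlap, a log2 difference of -1.32 ± 0.16 (adjusted p = 4.29e-08). Tree Swallows (7.54 to 15.8 CPM, median 11.0) lay below all Barn Swallows (16.0 to 30.8, median 22.6), with -0.98 ± 0.12. Prothonotary Warblers (3.91 to 11.4 CPM, median 6.38) overlapped with Yellow Warblers (7.74 to 20.7, median 16.6; log2 -1.15), and Eurasian Tree Sparrows (8.01 to 20.1, median 12.4) with House Sparrows (11.3 to 27.7, median 20.6; log2 -0.73, lost in females alone with an adjusted p of 0.127). House Wrens (10.5 to 22.9, median 14.6) and Carolina Wrens (10.4 to 18.9, median 13.9) gave 0.17 ± 0.12 and passed no test. The ependymal and choroid markers had 1 gene lower in Tree Swallows, 1 higher in Prothonotary Warblers, 1 higher and 1 lower in Eastern Bluebirds and 0 called in the sparrows, and their part in the HSPB11 differences was not tested.

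**Figure D3:**
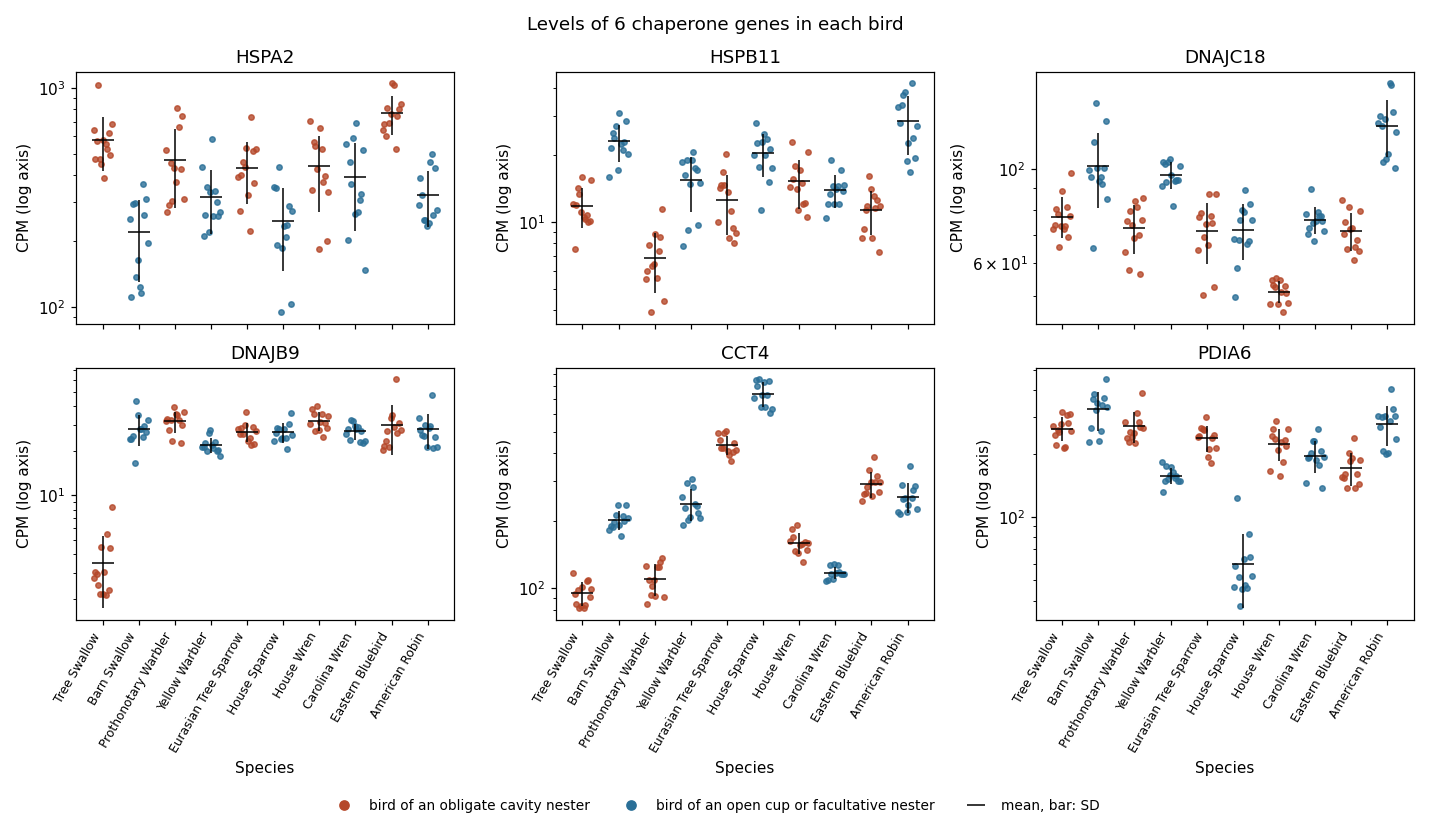
CPM on a log axis of HSPA2, HSPB11, DNAJC18, DNAJB9, CCT4 and PDIA6 in each bird by species, obligate nesters in red and partners in blue, with the mean and SD. Tree Swallows stand alone in DNAJB9 (2.12 to 8.33 CPM), House Sparrows in CCT4 (607 to 856 CPM) and PDIA6 (37.8 to 123 CPM).

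DNAJC18, an ER membrane J-domain protein related to DNAJB14, was the other member called lower in 4 families. House Wrens ran from 45.9 to 55.4 CPM (median 51.9) and Carolina Wrens from 67.5 to 89.6 (median 75.4), without overlap (log2 -0.52 ± 0.05). Eastern Bluebirds ran from 61.1 to 84.4 CPM (median 71.2) and American Robins from 101 to 160 (median 128), also without overlap (-0.82 ± 0.08). The differences were -0.41 in Hirundinidae and -0.40 in Parulidae, where birds overlapped, and -0.01 ± 0.09 in Passeridae (adjusted p = 0.955).

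The mitochondrial chaperonin and its lid were both called in the sparrows and the wrens. HSPE1, the lid, was higher in Tree Swallows (median 120 CPM, 98.9 to 175) than in Barn Swallows (58.4 CPM, 47.8 to 81.6), with a log2 difference of 1.06 ± 0.09, while HSPD1 was not called there (0.09). In House Wrens HSPD1 was higher (median 812 CPM, 655 to 968) than in Carolina Wrens (498 CPM, 419 to 598; log2 0.70 ± 0.06) while HSPE1 was lower (-0.36). In Eurasian Tree Sparrows both were lower (HSPD1 -0.37, HSPE1 -0.61).

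The cytosolic chaperonin is a ring-shaped complex of related subunits that folds actin and tubulin. Its genes were called in both directions in every family. Of 7, the number called higher and lower was 3 and 2 in Tree Swallows, 2 and 3 in Prothonotary Warblers, 1 and 4 in Eurasian Tree Sparrows, 5 and 1 in House Wrens, then 2 and 5 among Eastern Bluebirds, and with library size as the only scaling 2 and 5 in Prothonotary Warblers. In that order of species 71.4%, 71.4%, 71.4%, 85.7% and 100% were called, beside 54.4%, 55.4%, 49%, 56.9% and 56.3% of all genes. CCT4 ran from 81.3 to 116 CPM in Tree Swallows (median 94.2) and from 172 to 235 in Barn Swallows (median 198), with a log2 difference of -1.10 ± 0.07 (adjusted p = 2.74e-14), while CCT8 was higher in the same Tree Swallows (1.02). It was lower by the same -1.10 in Prothonotary Warblers (median 108 against 230 CPM in Yellow Warblers), and lower in Eurasian Tree Sparrows (421 against 730 CPM in House Sparrows, -0.77), but higher in House Wrens (158 against 116 CPM in Carolina Wrens, 0.48). The birds of these 4 pairs did not overlap.

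CCT7 was lower in Eurasian Tree Sparrows (median 84.8 CPM, 66.5 to 105) than in House Sparrows (245 CPM, 177 to 319), with a log2 difference of -1.54 ± 0.09. In the same birds TCP1, the alpha subunit, was higher (521 against 257 CPM, 1.03). CCT7 was also lower in Prothonotary Warblers (109 against 183 CPM in Yellow Warblers, -0.70). Eastern Bluebirds had less TCP1 (median 197 CPM, 160 to 273) than American Robins (441 CPM, 353 to 559; log2 -1.13 ± 0.10) and less CCT3 (310 against 457 CPM, -0.58), and more CCT7 (0.35) and CCT4 (0.20). CCT8 was lower in House Wrens (286 against 499 CPM in Carolina Wrens, -0.74), the only chaperonin gene called lower there.

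**Figure D4:**
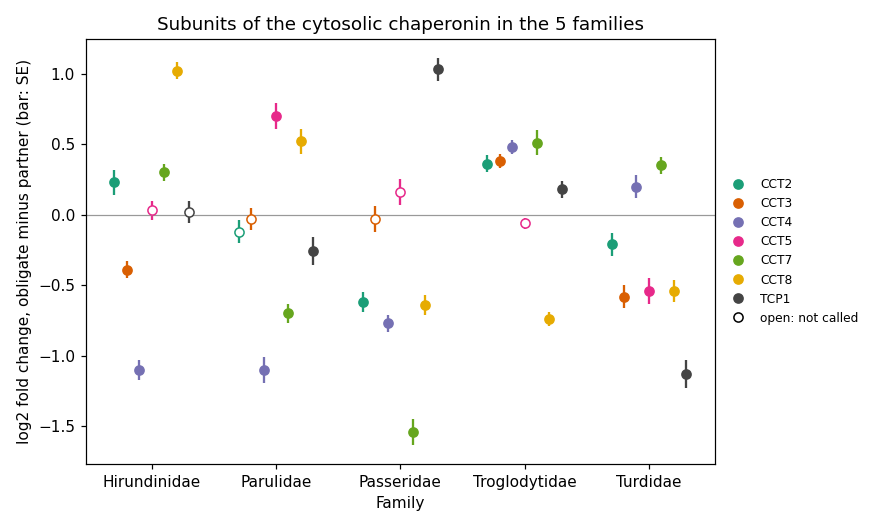
Log2 fold change (obligate nester minus partner, bar SE) of the 7 chaperonin genes in each family of birds; open points did not pass an edgeR adjusted p under 0.05. In Passeridae TCP1 stands at 1.03 and CCT7 at -1.54 in the same birds.

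BAG2 was called in 4 families, as were 22.4% of all genes tested in all 5. BAG1, BAG4, BAG5 and BAG6 were called in 2 each, as were 21.8% of those genes. BAG3, which links Hsp70 to selective autophagy, is the only member tested in all 5 families that was called in none (log2 -0.38 to 0.14). Of all genes 6.41% were called in none, and BAG3 was chosen for mention after its values were seen. Family, species and sex left 77.1% of its variance, and the highest bird of a species had 2.13 to 5.06 times the BAG3 level of the lowest. BAG1 was lower in Eurasian Tree Sparrows (-0.33) and Eastern Bluebirds (-0.70). BAG2, which in mammals inhibits the ubiquitin ligase STUB1, was lower in House Wrens (-0.47), Prothonotary Warblers (-0.51) and Eastern Bluebirds (-0.39) and higher in Tree Swallows (0.57).

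A list of ER members (HSPA5, HSP90B1, the 4 PDIA genes, DNAJB9, DNAJB11, DNAJC1, DNAJC3 and DNAJC10; 11 in all) had 1 called higher and 7 lower in Tree Swallows, and 2 higher and 7 lower in Eastern Bluebirds. In Eurasian Tree Sparrows 5 were higher and 0 lower, in Prothonotary Warblers 5 and 3, and in House Wrens 4 and 4. The shares called were 72.7% in Tree Swallows (all genes 54.4%), 81.8% in Eastern Bluebirds (56.3%) and 45.5% in Eurasian Tree Sparrows (49%). Prothonotary Warblers (all genes 55.4%) and House Wrens (56.9%) had 72.7% each. Without the libraries that stood apart the counts were 1 and 5 in Tree Swallows and 7 and 0 in Eurasian Tree Sparrows, and with library size as the only scaling 4 and 0 in Eurasian Tree Sparrows and 5 and 5 in Prothonotary Warblers. House Wrens had 2 and 4 with DESeq2 size factors. The list leaves out DNAJB14, DNAJC18 and HSPA13, described above as proteins of the ER membrane or microsomes. With them, a list drawn up after the values were seen, the counts over 14 genes were 1 and 9 in Tree Swallows, 7 and 4 in Prothonotary Warblers, 5 and 2 in Eurasian Tree Sparrows, 4 and 7 in House Wrens, then 3 and 9 among Eastern Bluebirds. PDIA6 had a median of 242 CPM in Eurasian Tree Sparrows (180 to 297) and of 52.0 CPM in House Sparrows (37.8 to 123), the highest House Sparrow being female 3. The log2 difference was 1.98 ± 0.14 with the libraries that stood apart and 2.13 without (adjusted p = 7.47e-12 and 6.83e-15). PDIA4 was also higher (1.00). HSPA5, the Hsp70 of the ER known as BiP, was not called in the sparrows (0.01) and was called lower in Tree Swallows (-0.55 ± 0.17, adjusted p = 0.00875), a call lost without the libraries that stood apart (-0.44, adjusted p = 0.0511). With library size as the only scaling it was called lower in Prothonotary Warblers as well (-0.25, adjusted p = 0.0343).

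Markers of blood cells were called in the Turdidae comparison. All 4 of 7 blood markers that were measured were lower in Eastern Bluebirds (summed level 258 to 1540 CPM, median 560) than in American Robins (348 to 8870 CPM, median 1590), and of 4 microglial markers 3 were lower and 1 higher. In Tree Swallows 3 of the 4 blood markers were lower, although the summed medians were close (956 and 964 CPM). Other marker lists held called genes too. Of all genes, 54.4% were called in Hirundinidae, 55.4% in Parulidae, 49% in Passeridae, 56.9% in Troglodytidae and 56.3% in Turdidae. With so few genes a list, the counts of markers are given as a description. In Tree Swallows 2 of 3 excitatory markers were lower, and of 4 neuronal markers 1 was higher and 2 lower, with RBFOX3 at a mean of 30.3 CPM against 125 in Barn Swallows. In Eurasian Tree Sparrows 2 of 4 inhibitory and 2 of 4 striatal markers were lower. Of 5 endothelial and mural markers, 2 were higher and 0 lower in Prothonotary Warblers and in Eurasian Tree Sparrows, and 0 higher and 2 lower in Eastern Bluebirds. In House Wrens 2 of 3 excitatory markers were lower and 1 higher. What part cell composition had in the member counts of these families was not tested.

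Other genes of the folding machinery, from a list of 76 of which 66 were measured, were called in both directions too. In Tree Swallows 19 were higher and 23 lower (63.6% called, all genes 54.4%). Prothonotary Warblers had 15 higher and 26 lower (62.1%, all genes 55.4%), or 9 and 33 with library size as the only scaling. Eurasian Tree Sparrows had 24 and 13 (56.1%, all genes 49%), or 23 and 21 with that scaling. House Wrens had 25 and 20 (68.2%, all genes 56.9%). Eastern Bluebirds had 21 of each (63.6%, all genes 56.3%). TTC4, an Hsp90 co-chaperone, and HSCB were higher in the obligate nester in all 5 families, 2 of 66 genes, where 0.525% of all genes were called in 1 direction in all 5. HSCB is a J-domain protein that hands iron-sulphur clusters on with HSPA9, and only its symbol keeps it out of the members. TTC4 differed by 1.99, 1.01, 0.71, 1.02 and 0.44 log2 units from Hirundinidae to Turdidae in the order above, and HSCB by 0.59, 0.37, 2.28, 0.79 and 1.06.

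The largest changes on that list in Hirundinidae were the Hsp90 cyclophilin PPID (2.07) and TTC4, and at the other end the prefoldin subunit VBP1 (-1.47) and the ER chaperone HYOU1 (-1.20). In Parulidae they were TTC4 and the Hsp90 co-chaperone PTGES3 (0.98), with the Hsp110 HSPH1 (-1.64) and HYOU1 (-1.39) lowest. In Passeridae the ER mannosidase EDEM3 (2.53) and HSCB were highest and the steroid receptor co-chaperones FKBP4 (-1.76) and PTGES3 (-1.54) lowest. In Troglodytidae the prefoldin subunit PFDN2 (1.84) and FKBP5 (1.11) were highest, and the lectin chaperone CANX (-4.15; mean 37.9 CPM in House Wrens and 692 in Carolina Wrens) and the ribosome-bound NACA (-0.96) lowest. In Turdidae the stress transcription factor HSF2 (mean 139 CPM in Eastern Bluebirds and 34.6 in American Robins) and HYOU1 (1.53) were highest and the small heat shock protein CRYAB (-1.22) and NACA (-1.13) lowest.

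Across the families, 64 members were tested in all 5. Of these, 10 were called in all 5 (15.6%, against 9.61% of all genes): CCT4, CCT7, CCT8, DNAJB14, DNAJC1, DNAJC10, DNAJC16, HSPA14, HSPA9 and PDIA6. None of the 64, a count of 0, was called in 1 direction in all 5 families, where 54 of 10284 genes were (0.525%). HSPA2, HSPB11 and DNAJC18 were the 3 called in 1 direction in 4 families and not called in the last (4.69%, against 2.7% of all genes). Called in both directions were 48 members (75%), against 58.8% of all genes. In 63 of 67 members the contrast of obligate nester and partner varied with family (edgeR F test over the family by nesting terms, adjusted p under 0.05), as in 89.5% of all genes.

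With species as the unit, nesting class was tested on the 10 species means with family as a block. No member passed (0 of 67, limma, lowest adjusted p 0.952), nor did any gene (0 of 10648), and at an unadjusted p under 0.05 there were 3 members and 476 genes (4.47%). The 3 members were HSPA2, higher by 0.86 ± 0.23 log2 units (unadjusted p = 0.00769), HSPB11, lower with -0.79 ± 0.24 (0.0126), and DNAJC18, lower with -0.43 ± 0.18 (0.0451). Next in each direction came DNAJC10 (0.68 ± 0.35), DNAJC24 (0.40 ± 0.21), which takes part in diphthamide synthesis, and CCT4 (-0.47 ± 0.29). These means rest on the same birds as the family comparisons and add no independent evidence to them.

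Families differed from one another, over the species means, in 2 members (limma F test, adjusted p = 0.0115 for both; 4.17% of all genes), DNAJC27 and HSPBP1. HSPBP1 had means of 6.97 and 8.17 CPM in the warblers, 6.18 and 5.83 in Eastern Bluebirds and American Robins, 2.017 and 1.935 in the sparrows, 1.21 and 0.819 in the wrens and 0.536 and 0.838 in the swallows. HSPBP1 failed the filter on low counts in the swallows and the wrens, and it passed the filter over all birds through the families where it is high, so its call is given as a description. It was not called within any of the 3 pairs in which it was tested. The next smallest values belonged to HSPB8 (adjusted p = 0.0527), CCT3 (0.0641) and HSPA8 (0.0795). HSPA8 had means of 8833 and 8606 CPM in the warblers and between 2049 CPM in House Sparrows and 5439 CPM in House Wrens elsewhere, and no warbler (lowest 6883 CPM) was below the highest bird of the other families (6872 CPM). Leaving out Hirundinidae or Troglodytidae left 1 member called, and leaving out Turdidae gave 4.

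Sex differences were few. In a fit to all birds that held species constant, 2 members were called (5.21% of all genes). DNAJC25 was higher in males, with means of 16.6 CPM in males and 14.3 in females and a log2 difference of 0.20 ± 0.06 (edgeR adjusted p = 0.0243). Males were higher in 9 of 10 species, by 0.09 to 0.44, and lower in Eurasian Tree Sparrows (-0.12). DNAJC1, an ER membrane J-domain protein, was higher in females, with 28.3 CPM in females and 24.9 in males (males minus females -0.18 ± 0.06, adjusted p = 0.0302). Females were higher in 8 species, males in Carolina Wrens (0.19), and Prothonotary Warblers showed 0. Carolina Wrens hold the libraries whose CHD1W went against the label, and their part in the Carolina Wren value was not tested.

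Leaving out 1 species could end either call, and leaving out Eastern Bluebird male 13 ended neither (adjusted p = 0.0254 for DNAJC25 and 0.0319 for DNAJC1). The call of DNAJC25 was lost without Prothonotary Warblers (adjusted p = 0.0618), Yellow Warblers (0.0858), Eastern Bluebirds (0.124) or American Robins (0.0631). That of DNAJC1 was lost without any 1 of the 8 species other than Prothonotary Warbler and Carolina Wren (adjusted p = 0.056 to 0.124), and without the libraries that stood apart (0.054). A sex difference that depended on nesting class was called in 0 members (edgeR, lowest adjusted p 0.777; 1 at an unadjusted p under 0.05; 0.0563% of all genes called), with the smallest p for DNAJB6 (unadjusted 0.0485), DNAJC11 (0.0569) and PDIA3 (0.0777). One that depended on species was also called in 0 members (lowest adjusted p 0.499; 1 at an unadjusted p under 0.05; 1.06% of all genes), with the smallest p for DNAJB9 (unadjusted 0.0261), HSPB11 (0.0798) and DNAJC12 (0.106).

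**Figure D5:**
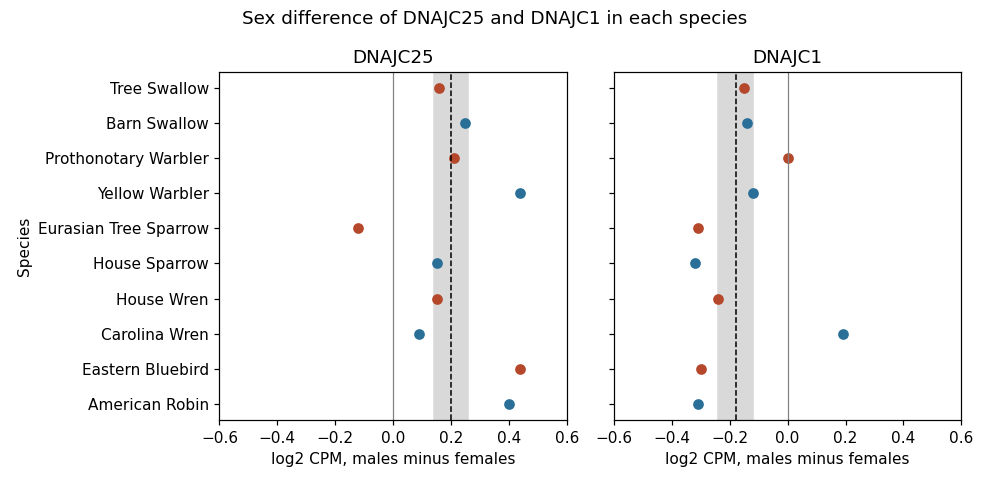
Difference of mean log2 CPM, males minus females, of DNAJC25 and DNAJC1 in each species, obligate nesters in red and partners in blue; the dashed line and grey band are the fitted difference over all birds and its SE. DNAJC25 lies above 0 in 9 species and DNAJC1 below 0 in 8.

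How far birds of a species differed depended on the member. HSPA2 in the highest bird of a species was 1.99 to 4.64 times its level in the lowest, and HSPA5 1.92 to 3.68 times, against 1.16 to 1.65 times for DNAJA3, a mitochondrial J-domain protein. Members at low counts gave wider ratios, 4.08 to 28.4 times for BAG6. BAG4, with a mean of 17.7 CPM, had a median ratio of 1.77 over the 10 species but 56.4 in the species with the widest. Some members peaked in the same bird, which was looked for after the values were seen, has no test and is given as a description. Over all 2211 pairs of members, the highest bird of a species was the same in a median of 1 of 10 species. CCT3 and HSPE1 shared it in 10 species, CCT8 and TCP1 in 9, and 6 pairs in 8: CCT4 with DNAJB11, CCT5 with HSPD1, DNAJB11 with HSPA5 and with HSPA9, HSP90AA1 with HSP90B1, and HSPA5 with HSPA9. These pairs join members of the cytosol, the ER and mitochondria. Without the libraries that stood apart CCT3 and HSPE1 shared it in 9 species, and the counts of the other pairs were the same. Pairs that shared it in at least 7 species numbered 27 (1.22% of all pairs). HSPD1 and HSPE1, whose genes share a promoter in mammals, did so in 7 (6 without those libraries), and the paralogues HSPA2 and HSPA8 in 0. All members of a bird come from 1 library. Eastern Bluebird male 11 was the highest of its species in 28 members, Tree Swallow female 8 and Prothonotary Warbler male 8 in 25 each and Barn Swallow male 5 in 24, where the median bird was highest in 4. Yellow Warbler female 4 was lowest of its species in 27 members. What part these birds had in the shared peaks was not tested.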

How the data were processed

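Reads were counted per gene by the authors with featureCounts of Subread 2.02z after Trimmomatic 0.36, fastp 0.20.1, Bowtie2 2.4.4 and SAMtools 1.10, per the submitters' processing notes, and the deposited table holds raw counts with 1 column per bird. Stranded mRNA libraries were made from total RNA, per the labels' protocols. Every column was matched to a labelled bird. The labels do not state the mapping reference.

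The members, the lists of related genes and markers and the tests were chosen with earlier results of these data known. The members were taken by symbol from the families named above, and some genes of those families are not reported here. Counts were TMM-scaled and filtered with filterByExpr in edgeR 4.0.16 (R 4.3.3). Species pairs, sex and interactions used its quasi-likelihood test. Nesting class (4 residual degrees of freedom) and family (5) used limma 3.58.1 on species means of log2 CPM with a prior count of 2. Tests of 1 difference are two-sided, those over several terms are F tests, and p-values are adjusted by Benjamini-Hochberg over all genes tested unless called unadjusted, with 0.05 as threshold. SE is that of the fitted log2 fold change, and n is 12 birds a species (13 Tree Swallows). The labels number birds without saying that they were sampled independently, so p-values of the quasi-likelihood tests measure the spread between these birds. Those for nesting class and family rest on the spread between species means. Equal bird numbers were not taken as pairs.

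Named in a family are the 5 highest and 5 lowest called members that averaged 5 CPM or more in 1 species, without overlap. Named across families are members called one way in 4 or 5, the 3 smallest p each way over species means, the 5 smallest among families, all called by sex, the 3 smallest p per interaction with sex, the 6 widest and 6 narrowest ranges, members set apart by 4-fold, members that failed the filter, and the most abundant of any role left over. Other members named, and the pairs that shared a highest bird, were chosen after their values were seen. Alternatives were DESeq2 1.42.0 and its size factors, library size alone, no filter, other prior counts, 1 sex, a replicate block, a fold minimum, and leaving out libraries, species or families. The tests were checked on simulated data. Figures used Python 3.11.15 and matplotlib 3.10.9.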

Additional observations from a re-analysis of the deposited data

Results flagged for a closer look

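In DNAJC1, called by sex, single birds stood far from the others of their species and sex: House Sparrow female 3 (54.4 CPM), House Wren female 2 (28.5 CPM) and American Robin male 7 (16.1 CPM). House Sparrow female 3 is also a library that stood apart in its correlations. Among the obligate nesters the House Wren had a mean log2 CPM of DNAJC18 of 5.69, far from the other 4 species. Of 52 groups of 5 to 7 values examined in this way, 4 gave such a value, and chance gives about 1 in 20. The contrast of obligate nester and partner varied with the family in 63 of 67 members, by a test of that difference itself.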

How the results depend on the processing

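Requiring at least a 2-fold difference left 14 members in Hirundinidae (14.7% of all genes), 8 in Parulidae (12%), 12 in Passeridae (12.4%), 3 in Troglodytidae (11.7%) and 9 in Turdidae (17.9%). Of the species set apart, 1 member passed 4-fold. The 2 calls by sex became 1 without the libraries that stood apart and 0 to 2 when 1 species was left out. The 2 calls among families became 1 to 4 when 1 family was left out. With bird number as a replicate block, 17 members were called in Turdidae, and the balance turned from 17 higher and 28 lower to 12 and 5. No count of all genes under that fit is given here, so the turn is not read as particular to the members. That fit compares species within numbers, and only 2 numbers occur in both thrushes, in 4 bluebirds and 2 robins, against 7 in each other family. The block left 0 members called by sex, ending both calls (DNAJC25 0.18, adjusted p = 0.447; DNAJC1 -0.14, adjusted p = 0.693). Same-numbered birds of a pair correlated between -0.55 and 0.40 in their deviations (36 pairs, 10 over 0.1), and of the sexes between -0.56 and 0.34 (40 pairs, 15 over 0.1). The labels do not say what the numbers mean, and equal numbers were not taken as pairs. Under all alternatives run, 77 counts stayed within 1.5 times and 21 did not, and of the named genes' values 522 kept side and direction, 22 lost the threshold and 0 reversed. Low counts limit HSPB7, HSPB8, HSPBP1, BAG6 and DNAJC5G, and the 10 species limit tests of nesting class.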
